A study of Mus musculus with 6 samples.

Results

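The genes described here are 44 mouse genes of antioxidant defence, chosen by name from a list of antioxidant enzymes, glutathione and thioredoxin genes, targets of the transcription factor NRF2, and the regulators of NRF2 itself. Every probe set that the platform annotation gives to 1 of these symbols alone was taken, which found 40 of the 44 genes on 88 probe sets, out of 18193 genes with such a probe set on the whole array. The genes were assayed with Affymetrix whole-genome mouse arrays in neurospheres, floating colonies that neural stem cells and progenitors form in culture, and 3 arrays from Ts1Cje mice were compared with 3 from disomic mice. The Ts1Cje mice were on a C57BL/6 background and the controls were disomic C57BL/6 littermates. All were female and 84 days old, and the cells came from the walls of the lateral ventricles and were cultured for 7 days. Ts1Cje is a mouse model of Down syndrome, the human condition of an extra chromosome 21, and carries an additional copy of distal chromosome 16 that was translocated to the end of chromosome 12. The translocation arose during a targeted mutation of Sod1, and the extra copy of Sod1 is generally described as disrupted.

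The deposited values are log2 intensities. A difference between genotypes is given as M, the Ts1Cje mean less the disomic mean, and A stands for the average over all 6 arrays. Probe sets with A above 5 were taken as expressed. By that measure 38 of the 40 genes were expressed, on 66 probe sets, among 8947 expressed genes and 16371 expressed probe sets on the array. Sod3, the extracellular superoxide dismutase, stood at the lowest value of the data, 2.23, on every array and with both of its probe sets. Nqo1, a quinone reductase that is a standard readout of NRF2, lay between 3.48 and 3.62 on all 6 arrays. Prdx1 shared each of its 5 probe sets with another symbol, and no probe set carried the symbol of Prdx5, Prdx6 or G6pdx, so these 4 genes were not analysed here. Where a gene had several probe sets, the brightest represents it unless another is named, and signals of different probe sets cannot be set against each other as amounts of RNA.

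Superoxide dismutases turn superoxide into hydrogen peroxide, which catalase, glutathione peroxidases and peroxiredoxins then remove. The glutathione peroxidases and peroxiredoxins do so with reducing power drawn from glutathione, thioredoxin and, behind both, NADPH. Many of these enzymes are controlled by NRF2, the product of Nfe2l2. KEAP1 together with CUL3 marks NRF2 for degradation in resting cells, and oxidants or electrophiles that modify KEAP1 let NRF2 enter the nucleus, where it pairs with small Maf proteins on the antioxidant response element. BACH1 occupies the same element as a repressor, best known at Hmox1. In the brain, astrocytes and neural progenitors are known for a stronger NRF2 programme than mature neurons. SOD1 has long been discussed in Down syndrome because its human gene lies on chromosome 21.

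The core of the antioxidant response element was searched as TGACNNNGC, on both strands, in the RefSeq promoter windows of GRCm38.p6, which run from 250 bases before to 50 bases after each annotated start. Windows were given for 37 of the 44 genes, the others being Gsta4, Gclc, Msra, Gsr, Hmox1, Prdx6 and Sod3. The core was found in 11 of the 37 genes (29.7%), against 14.0% of 27025 genes with a window. Some genes have several windows, and counted by window it was found in 11 of 50, against 12.4% of 32851. A second form, TGANTCAGC, was found in Gstp1, Me1, Prdx1 and Srxn1, which is 10.8% of the 37 genes against 1.37% of all genes. The 2 forms overlap in the sequence TGACTCAGC. A match of letters is not evidence of binding, and many known elements lie outside these windows. The matches of Pgd and Srxn1 begin 3 and 28 bases after the annotated start, not before it. The stretches below show the match in capitals for Sod1, the gene with the firmest difference, for Gclm, Gstm5 and Pgd, whose groups did not overlap, and for Me1, Srxn1, Txnrd1 and Nfe2l2 as NRF2-linked genes, each written on the strand on which the match reads TGACNNNGC.
Sod1, chr16:90220686-90220734, minus strand: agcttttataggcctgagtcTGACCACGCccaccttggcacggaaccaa
Gclm, chr3:122245403-122245451, minus strand: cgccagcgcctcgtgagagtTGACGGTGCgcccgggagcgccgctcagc
Gstm5, chr3:107895792-107895840, plus strand: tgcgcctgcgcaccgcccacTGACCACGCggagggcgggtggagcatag
Pgd, chr4:149166051-149166099, minus strand: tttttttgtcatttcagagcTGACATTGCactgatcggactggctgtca
Me1, chr9:86695892-86695940, minus strand: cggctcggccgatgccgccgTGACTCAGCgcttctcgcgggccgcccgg
Srxn1, chr2:152105532-152105573, minus strand: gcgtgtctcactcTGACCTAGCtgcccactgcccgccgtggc
Txnrd1, chr10:82859094-82859142, minus strand: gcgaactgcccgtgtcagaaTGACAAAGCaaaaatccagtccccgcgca
Nfe2l2, chr2:75704875-75704913, minus strand: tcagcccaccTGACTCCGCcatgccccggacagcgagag
Of these, only the Me1 match has the full TGACTCAGC. Sod1 and Gstm5 carry the same 9 letters, TGACCACGC. The Sod1 promoter window, chr16:90220512-90220811 on the plus strand, is given whole because Sod1 is both the gene whose difference was called and the gene next to the edge of the trisomic segment, and its match, at -56 from the start, is in capitals as it reads on the plus strand.
Sod1 promoter: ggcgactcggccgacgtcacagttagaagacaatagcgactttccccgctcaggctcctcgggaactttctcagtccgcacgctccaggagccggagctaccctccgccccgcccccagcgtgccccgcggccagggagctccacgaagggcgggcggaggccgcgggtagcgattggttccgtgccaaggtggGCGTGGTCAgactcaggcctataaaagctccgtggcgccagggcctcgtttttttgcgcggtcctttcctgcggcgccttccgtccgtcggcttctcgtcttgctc

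Between any pair of arrays the correlation over all probe sets was 0.991 to 0.997, and the array medians were 2.69 to 2.71. Genes of the trisomic segment beyond Sod1 followed the labels, with M above 0 in 43 of 44 expressed genes. Some other features of the arrays moved with genotype. All 22 expressed markers of dividing cells, of 24 listed, had M below 0 (median -0.65), with mean deviations from the 6-array mean of 0.17 to 0.40 on the disomic arrays and -0.61 to 0.02 on the Ts1Cje arrays, so the groups did not overlap. For the actin control the 3′ minus 5′ signal of all 3 Ts1Cje arrays exceeded that of all disomic arrays (2.02 ± 0.21 against 1.67 ± 0.15, SD, n = 3 each) and so did that of the Gapdh control (2.34 ± 0.09 against 2.18 ± 0.10) and the 18S signal (12.22 ± 0.22 against 11.10 ± 0.78). The two-sided exact permutation p was 0.1 for each, the smallest that 3 against 3 allows. Of the neural stem cell and astrocyte markers 15 of 17 were expressed, 12 of them with M above 0 (median 0.10, the same as for the antioxidant genes). Their M ran from -0.19 (Prom1) to 0.81 (Aqp4, the 1 marker of this list without overlap), and their mean deviations were -0.16 to 0.02 on the disomic and -0.07 to 0.17 on the Ts1Cje arrays. Of 14 markers of neuroblasts and neurons 6 were expressed, 4 of them with M above 0 (median 0.26), including Elavl3 with an M of 0.58 and no overlap, while defining markers such as Dcx and Tubb3 were near the lowest value. Their mean deviations were -0.34 to 0.09 on the disomic and -0.21 to 0.44 on the Ts1Cje arrays. Of 12 markers of the oligodendrocyte lineage 8 were expressed, 7 of them with M below 0 (median -0.05), all with overlap. For these the mean deviations were 0.04 to 0.20 on the disomic and -0.30 to 0.13 on the Ts1Cje arrays. None of the 11 microglial and 8 ependymal markers on the array was expressed, and 1 of 12 vascular markers was. The part of these markers and of the control signals in the results below was not tested. In such bulk cultures, fewer cells of a type and less RNA per cell cannot be told apart.

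Sod1, cytosolic copper-zinc superoxide dismutase, was the only 1 of the 38 expressed genes whose brightest probe set passed a moderated t-statistic of 4, and it was higher in the Ts1Cje neurospheres. Its brightest probe set read 13.55, 13.81 and 13.68 on the disomic arrays and 14.13, 14.23 and 14.29 on the Ts1Cje arrays. The groups did not overlap and were 0.54 apart on the log2 scale (standard error 0.08, 95% interval 0.31 to 0.76, moderated t 6.37), a fold change of 1.45. The next brightest probe set read 11.85, 11.61 and 11.85 on the disomic arrays and 12.26, 12.21 and 12.36 on the Ts1Cje arrays, again without overlap. It gave an M of 0.51 (standard error 0.09, t 5.68), or 1.42-fold.

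The other 3 Sod1 probe sets gave a different picture. A dimmer expressed one read 7.94, 8.15 and 8.38 on the disomic arrays and 8.25, 7.85 and 8.13 on the Ts1Cje arrays, overlapping fully (M -0.08, standard error 0.17). Of those below the level for expression, 1 read 3.14 to 3.33 on the disomic and 3.23 to 4.40 on the Ts1Cje arrays and the other stood at 2.23 throughout. The annotation used here does not say which part of the transcript each probe set reports, nor whether the disrupted copy contributes to it.

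Over all 66 expressed member probe sets, these 2 of Sod1 were above a t of 4 and none was below -4. Across all expressed probe sets 0.965% were above 4 and 0.812% below -4, and per gene (brightest probe set) 1.13% were above 4 and 0.693% below -4, and a single gene of 38 is too few to set against these shares. Neither Sod1 probe set passed an adjusted p of 0.05 in limma, with p-values adjusted over all 45037 probe sets: the lowest adjusted p of any member was 1.0, and 10 of the 66 probe sets, 7 higher and 3 lower, had an unadjusted p under 0.05. In the same fit 1 probe set of the array, not of a member, was called higher by adjusted p (0.00222%) and none lower (0.0%), while 598 higher and 526 lower had an unadjusted p under 0.05. Those 45037 include probe sets that were not expressed, so the 2 counts are not on the same footing. By the brightest probe set of each gene, 3 of the 38 were higher and 2 lower at that level. The share of all expressed genes at that level was not computed, so this count has no background to be set against. In a limma fit of the 16371 expressed probe sets alone, 8 of the 66, all higher, had an unadjusted p under 0.05, against 1004 of all.

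**Figure D1:**
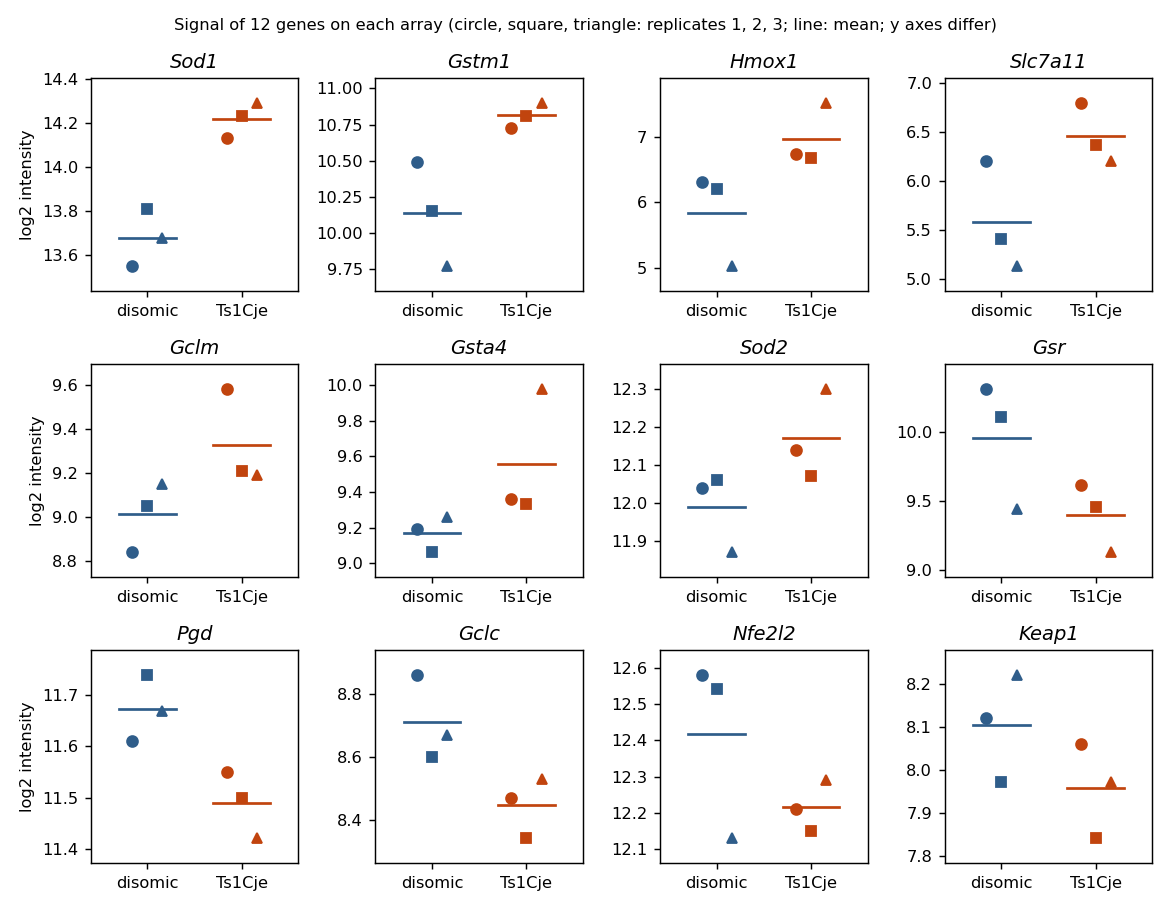
Log2 intensity of 12 of the genes (brightest probe set, y axes differ) on each of the 3 disomic and 3 Ts1Cje arrays, with a line at each group mean. Sod1 has tight groups that lie 0.54 apart, whereas the larger difference of Hmox1 (1.12) comes with 1 low disomic array (5.03) and 1 high Ts1Cje array (7.51).

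Sod1 lies at the edge of the trisomic segment, so its M was set beside those of its neighbours in RefSeq gene order, a comparison chosen after its values had been seen. The 10 nearest expressed genes toward the telomere, which are trisomic, had a median M of 0.50, ranged from -0.03 (Olig2) to 0.81 (Urb1), and 9 of the 10 were above 0. Over all 44 expressed genes on that side the median was 0.53, against 0.58 for the log2 of 1.5. The 10 nearest expressed genes toward the centromere had a median M of 0.02, ranged from -0.29 (Cct8) to 0.28 (App), and 5 of the 10 were above 0. App and Ltn1 (M 0.26) among them passed a t of 4 without overlap (t 4.47 and 4.23), as did Synj1 (M 0.70, t 9.21) among the 10 trisomic genes. The 245 expressed genes on the centromere side had the same median, 0.02, and ranged from -1.04 to 1.09. Tiam1, the adjacent expressed gene on the disomic side, had an M of 0.06 (standard error 0.22), and Scaf4, the adjacent one on the trisomic side, an M of 0.57 (standard error 0.28). With 0.54, Sod1 thus lay within the range of its trisomic neighbours and above that of the 10 nearest disomic ones, but inside the range of the 245. Of the other members, Bach1 and Txnrd2 are also on chromosome 16 but on the centromere side, outside the trisomic segment.

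**Figure D2:**
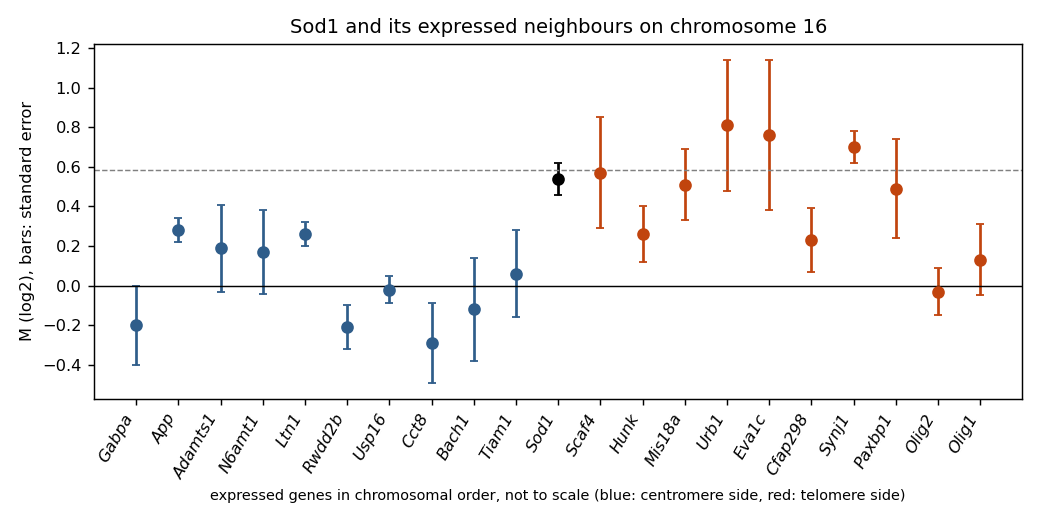
M with its standard error for Sod1 (black) and the 10 nearest expressed genes on either side, in chromosomal order and not to scale, with dashes at the log2 of 1.5. Sod1 at 0.54 lies near the median of the trisomic genes on the telomere side (0.50) and above all 10 genes on the centromere side (median 0.02).

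Sod2, the mitochondrial manganese superoxide dismutase, lay on the same side with a smaller difference. Its brightest probe set read 12.04, 12.06 and 11.87 on the disomic arrays and 12.14, 12.07 and 12.30 on the Ts1Cje arrays. These groups did not overlap but came within 0.01 of each other, with an M of 0.18 (standard error 0.09, t 2.10). Another probe set gave an M of 0.36 (t 3.17) without overlap, and the remaining expressed one gave 0.18 with overlap. None passed the t of 4 in this fit.

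Among the enzymes that remove peroxide, none had groups without overlap. Catalase (Cat, M -0.03, standard error 0.11) and the glutathione peroxidases Gpx4 (0.06, standard error 0.23), Gpx7 (-0.18, standard error 0.26) and Gpx8 (-0.01, standard error 0.20) were all within 0.2 of 0, and Gpx1, the main cytosolic glutathione peroxidase, had an M of 0.27 (standard error 0.20). The dimmer expressed probe sets of Cat and Gpx4 lay further out, with M of -0.24 and 0.28, both with overlap. Prdx3, the mitochondrial peroxiredoxin, read 10.60, 10.37 and 10.33 on the disomic arrays and 10.58, 10.72 and 10.68 on the Ts1Cje arrays. Its groups overlapped by the first disomic array alone, which stood just above the first Ts1Cje array (M 0.23, standard error 0.09, t 2.53). Prdx2, an abundant cytosolic peroxiredoxin, had an M of 0.10 (standard error 0.12). Prdx4, the peroxiredoxin of the endoplasmic reticulum, read 10.11, 10.64 and 10.18 on the disomic arrays and 10.14, 9.83 and 10.09 on the Ts1Cje arrays. Its M of -0.29 (standard error 0.18) rested on its brightest probe set, the other expressed ones giving -0.09 and -0.06.

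Srxn1, sulfiredoxin, which repairs overoxidised peroxiredoxins and is an NRF2 target, was the most variable of the 38 genes by standard error (0.54). It read 7.63, 6.87 and 5.75 on the disomic arrays and 7.17, 6.78 and 6.90 on the Ts1Cje arrays. The SD was 0.95 in the disomic and 0.20 in the Ts1Cje group, and the disomic arrays alone spanned the whole range of the gene. Its M of 0.20 had an interval of -1.24 to 1.65, which holds sizeable differences in both directions.

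In the thioredoxin system, which passes electrons from NADPH to peroxiredoxins and other proteins, differences were small. Txn1, cytosolic thioredoxin, read 14.30, 14.12 and 14.31 on the disomic arrays and 14.31, 14.38 and 14.32 on the Ts1Cje arrays. The groups did not overlap, though the third disomic and first Ts1Cje arrays were equal to the second decimal, and M was 0.09 (standard error 0.06, t 1.51). The mitochondrial partners Txn2 (M 0.11, standard error 0.23) and Txnrd2 (0.12, standard error 0.25) overlapped. Txnrd1, the cytosolic thioredoxin reductase and an NRF2 target, had an M of -0.20 (standard error 0.20).

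Genes that supply glutathione differed in direction from each other. Slc7a11, the cystine importer xCT that feeds glutathione synthesis, read 6.21, 5.41 and 5.13 on the disomic arrays and 6.80, 6.37 and 6.21 on the Ts1Cje arrays. The highest disomic and the lowest Ts1Cje arrays were equal to the second decimal and counted as overlapping. Its M was 0.88 (standard error 0.35, t 2.48), a fold of 1.83 with an interval on the log2 scale of -0.08 to 1.83. A probe set of Slc7a11 below the level for expression gave an M of 1.10, with overlap.

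Glutathione is made by glutamate-cysteine ligase, of which Gclc is the catalytic and Gclm the modifier subunit, both NRF2 targets. Gclm read 8.84, 9.05 and 9.15 on the disomic arrays and 9.58, 9.21 and 9.19 on the Ts1Cje arrays. Its Ts1Cje group was the higher, without overlap (M 0.31, standard error 0.15, t 2.04), while its other probe set had the same size of M (0.30) with overlap. Gclc read 8.86, 8.60 and 8.67 on the disomic arrays and 8.47, 8.34 and 8.53 on the Ts1Cje arrays. Here the Ts1Cje group was the lower, without overlap (M -0.26, standard error 0.09, t -2.78), but a second probe set nearly as bright gave an M of 0.14 with overlap, so the direction for Gclc depends on the probe set. Gss, glutathione synthetase, had an M of 0.09 (standard error 0.32).

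Gsr, glutathione reductase, which regenerates glutathione with NADPH and is an NRF2 target, had the lowest M of the 38 genes. It read 10.31, 10.11 and 9.44 on the disomic arrays and 9.62, 9.46 and 9.13 on the Ts1Cje arrays. The third disomic array fell inside the Ts1Cje range (M -0.55, standard error 0.29, t -1.92, fold 0.682), and the other expressed probe set gave an M of -0.37. The glutaredoxins Glrx (0.19, standard error 0.14) and Glrx2 (0.13, standard error 0.18), which reduce glutathione adducts on proteins, overlapped between genotypes.

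The 6 glutathione transferases, which attach glutathione to electrophiles, had M from 0.00 to 0.68 and a median of 0.18. Gstm1, a cytosolic transferase and NRF2 target, read 10.49, 10.15 and 9.77 on the disomic arrays and 10.73, 10.81 and 10.90 on the Ts1Cje arrays. The Ts1Cje arrays lay close together and above the more scattered disomic ones, with an M of 0.68 (standard error 0.21, interval 0.12 to 1.23, t 3.27), or 1.6-fold. Its other expressed probe sets also separated the groups, with M of 0.67 (t 3.60) and 0.52 (t 2.96). All remained under the t of 4, and transferases of the mu class are similar enough in sequence that their probes may share signal.

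Gstm5, another mu-class transferase, read 10.94, 11.06 and 11.02 on the disomic arrays and 11.08, 11.32 and 11.34 on the Ts1Cje arrays. Its Ts1Cje group was higher by 0.24 (standard error 0.09, t 2.71) without overlap. Gsta4, an alpha-class transferase that handles the lipid peroxidation product hydroxynonenal, read 9.19, 9.06 and 9.26 on the disomic arrays and 9.36, 9.33 and 9.98 on the Ts1Cje arrays. These did not overlap either, with the third Ts1Cje array well above the other arrays (M 0.39, standard error 0.21, t 1.84). Gstp1 (0.00, standard error 0.12) and the microsomal transferases Mgst1 (0.11, standard error 0.23) and Mgst3 (0.06, standard error 0.26) overlapped.

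Hmox1, inducible haem oxygenase, which breaks down haem and is a joint target of NRF2 and BACH1, had the largest M of the 38 genes. It read 6.31, 6.20 and 5.03 on the disomic arrays and 6.73, 6.67 and 7.51 on the Ts1Cje arrays. The groups did not overlap, but the nearest arrays of the 2 groups were closer to each other than either was to the outlying array of its own group. Its M of 1.12 (2.17-fold) had a standard error of 0.47, an interval of -0.15 to 2.39 and a t of 2.37.

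Of the enzymes that supply NADPH, only Pgd, 6-phosphogluconate dehydrogenase of the pentose phosphate pathway, separated the genotypes. Pgd read 11.61, 11.74 and 11.67 on the disomic arrays and 11.55, 11.50 and 11.42 on the Ts1Cje arrays. The Ts1Cje group was the lower by a small amount (M -0.18, standard error 0.05, t -3.66, fold 0.881), and the other 3 probe sets gave M of -0.15, -0.15 and -0.28. Taldo1 (M -0.07, standard error 0.12) and Tkt (0.05, standard error 0.09) of the same pathway overlapped. Me1, malic enzyme, had an M of 0.23 (standard error 0.20) with overlap, and its dimmer probe set an M of 0.29 (t 2.35) without. The repair genes Msra, a methionine sulfoxide reductase (0.15, standard error 0.18), and Park7, which encodes DJ-1 (0.01, standard error 0.10), overlapped.

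NRF2 and its regulators all had M below 0 and overlapping groups. Nfe2l2 read 12.58, 12.54 and 12.13 on the disomic arrays and 12.21, 12.15 and 12.29 on the Ts1Cje arrays. The third disomic array was the lowest of all 6, and M was -0.20 (standard error 0.14, t -1.43). Keap1, the inhibitor of NRF2, read 8.12, 7.97 and 8.22 on the disomic arrays and 8.06, 7.84 and 7.97 on the Ts1Cje arrays, with an M of -0.14 (standard error 0.09). Bach1, the repressor, read 10.99, 11.67 and 11.15 on the disomic arrays and 11.20, 11.42 and 10.83 on the Ts1Cje arrays. Its groups were interleaved (M -0.12, standard error 0.26), and its dim probe set, between 4.48 and 5.78, had an M of 0.32 (standard error 0.50). NRF2 and KEAP1 are controlled largely at the level of protein, which these arrays do not measure.

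**Figure D3:**
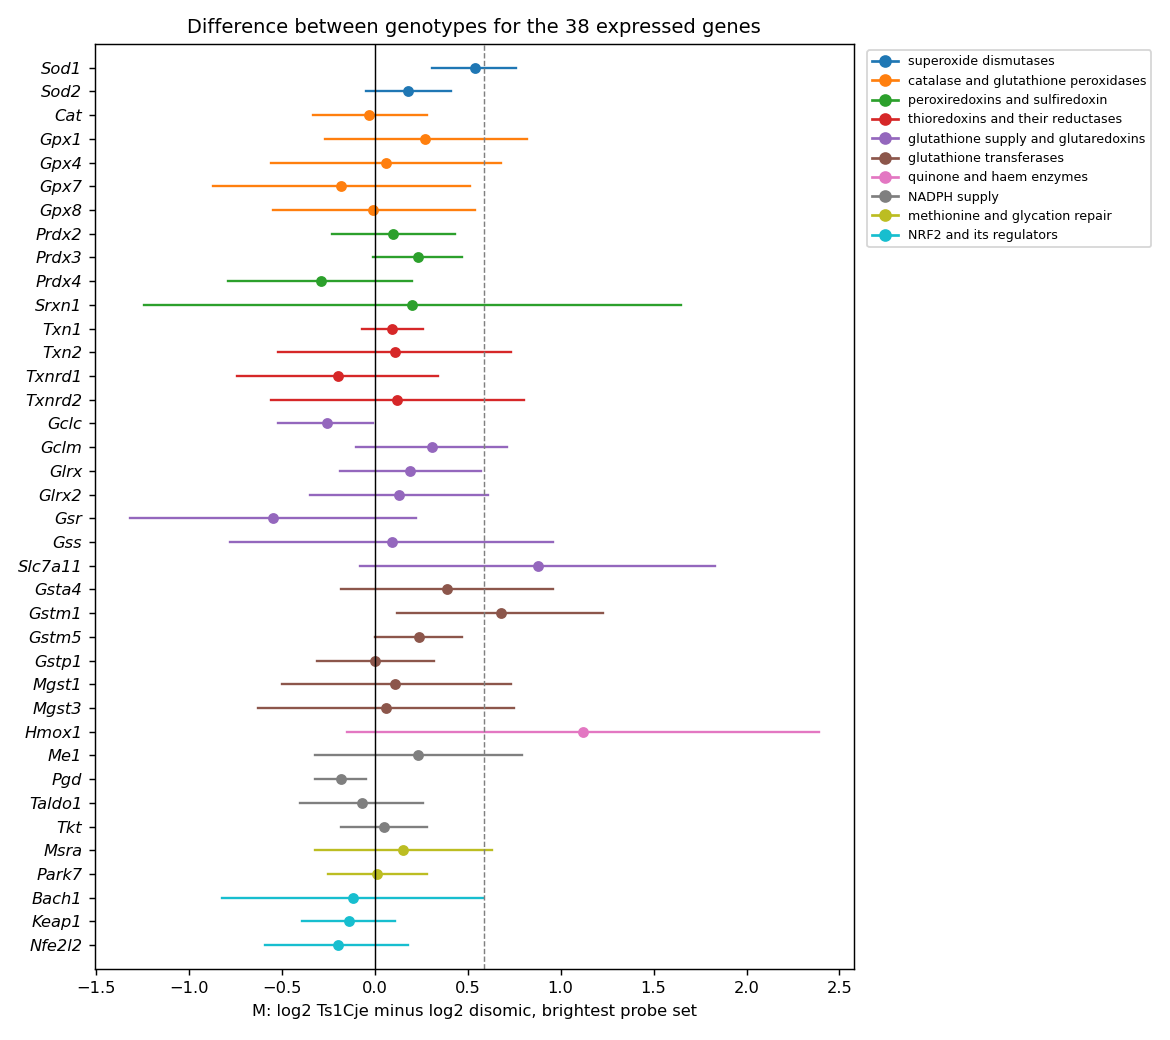
M (log2 Ts1Cje minus log2 disomic, brightest probe set) with its 95% interval for the 38 expressed genes, coloured by role, with a solid line at 0 and dashes at the log2 of 1.5. Most points lie within 0.3 of 0, Sod1 has a narrow interval of 0.31 to 0.76, and Hmox1 and Srxn1 have the widest intervals.

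As a group the 38 genes had a median M of 0.10 (1.07-fold) with quartiles of -0.06 and 0.22, against a median of 0.02 and quartiles of -0.12 and 0.15 over all 8947 expressed genes. M was above 0 for 26 and below 0 for 12 of them, which is 68.4% above 0 against 53.9% of all expressed genes. All Ts1Cje arrays exceeded all disomic arrays for 8 of the 38 (21.1%, against 6.12% of all expressed genes), namely Sod1, Sod2, Txn1, Gclm, Gsta4, Gstm1, Gstm5 and Hmox1. The reverse held for 2, Pgd and Gclc (5.26%, against 5.16%). With each of the 66 expressed probe sets counted by itself, 13 were higher and 3 lower without overlap, against 5.53% and 5.21% of all expressed probe sets. These counts are descriptions of genes that share the same 6 arrays, and no test was made over them.

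Most differences were small. For 31 of the 38 genes M lay within 0.3 of 0, while 4 were above 0.5 (Sod1, Slc7a11, Gstm1 and Hmox1, against 2.72% of all expressed genes) and Gsr was below -0.5 (against 2.98%). The 95% interval of M lay wholly within a 1.5-fold change in either direction for 15 genes and held 1.5-fold or its inverse for the other 23. Of the 20 genes with several expressed probe sets, 15 had M of the same sign on all, the exceptions being Sod1, Gclc, Glrx2, Park7 and Bach1. The 15 expressed genes marked as NRF2 targets had a median M of 0.11, with 10 above 0, and the other 23 a median of 0.09, with 16 above 0. The difference between them was not tested.

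The group's level varied between arrays of the same genotype. The mean deviation of the 38 genes from their 6-array means was 0.06, -0.03 and -0.20 on the disomic arrays and 0.02, 0.00 and 0.15 on the Ts1Cje arrays. The first disomic array was thus above the first and second Ts1Cje arrays, and the extremes were the third array of each genotype. For the NRF2 targets alone the means were 0.15, -0.08 and -0.34 on the disomic arrays and 0.14, 0.00 and 0.13 on the Ts1Cje arrays, with the first disomic array the highest of all. The third disomic array was the lowest of the 6 for 12 of the 38 genes (31.6%, against 18.8% of all expressed genes), the third Ts1Cje array was the highest for 15 (39.5% against 23.0%), and the first disomic array was the highest for 11 (28.9% against 17.2%). The median M was 0.04 without the third disomic array and 0.03 without the third Ts1Cje array. Both were near the 0.02 of all expressed genes with all arrays.

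**Figure D4:**
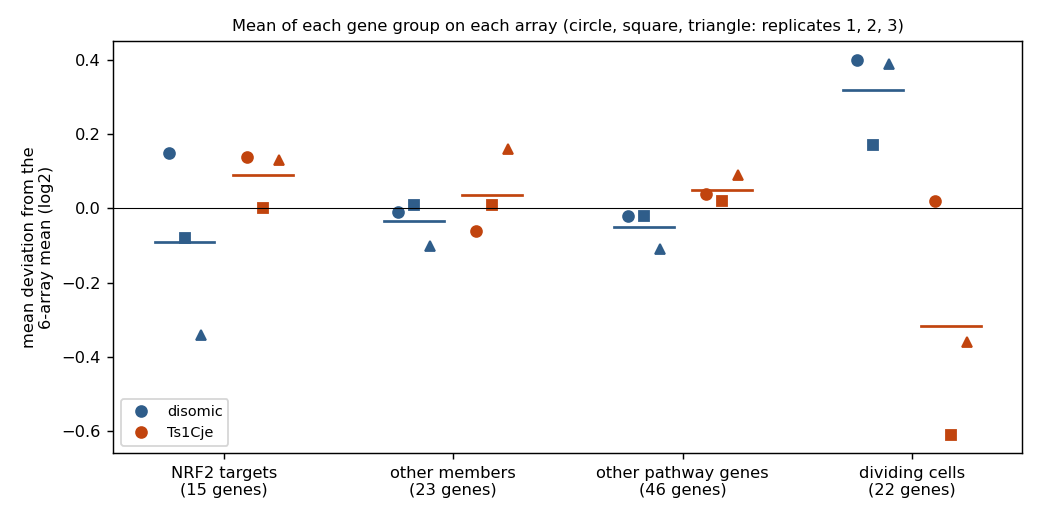
Mean deviation (log2) from the 6-array mean on each array for the NRF2 targets (15 genes), the other members (23), other genes of the pathway (46) and markers of dividing cells (22), disomic in blue and Ts1Cje in red, with a line at each group mean. The genotypes overlap for the NRF2 targets, where the first disomic array (0.15) is the highest and the third (-0.34) the lowest, and are apart for dividing cells and, by a small margin, for the other genes of the pathway.

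The wider pathway was described with 69 further genes, among them small Maf partners, other transferases, glutathione and iron genes and exporters, of which 64 were on the array and 46 were expressed. Their median M was 0.09, with 32 above and 14 below 0, and their mean deviations were -0.02, -0.02 and -0.11 on the disomic arrays and 0.04, 0.02 and 0.09 on the Ts1Cje arrays, apart by a small margin. The genotypes were apart with Ts1Cje higher for 4 of the 46 (8.7%) and with Ts1Cje lower for 1 (2.17%), near the 6.12% and 5.16% of all expressed genes. A t past 4 was reached by 1 gene upward, Abcc4, and 1 downward, Ptgr1, against 1.13% and 0.693% of all expressed genes. Both had an adjusted p of 1.0 in limma.

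Abcc4, an efflux pump that exports glutathione conjugates and other organic anions, read 7.21, 7.67 and 7.24 on the disomic arrays and 8.27, 7.98 and 8.31 on the Ts1Cje arrays (M 0.81, standard error 0.17, t 4.64). Ptgr1, a reductase of reactive lipid aldehydes, read 9.71, 9.65 and 9.54 on the disomic arrays and 9.39, 9.24 and 9.36 on the Ts1Cje arrays (M -0.30, standard error 0.07, t -4.67). Both genes are counted among NRF2 targets and went in opposite directions here.

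Slc3a2, the heavy chain that pairs with Slc7a11 in the cystine importer, read 10.01, 9.42 and 9.52 on the disomic arrays and 10.10, 10.04 and 10.10 on the Ts1Cje arrays (M 0.43, standard error 0.18, t 2.43). Its Ts1Cje arrays were all higher, like those of Slc7a11 apart from the tie noted above. Chac1, a glutathione-degrading enzyme, had an M of 0.29 (standard error 0.09, t 3.29), with 5.43, 5.25 and 5.25 on the disomic and 5.67, 5.65 and 5.46 on the Ts1Cje arrays. Cul3, the ligase scaffold on which KEAP1 acts, read 10.85, 10.90 and 10.76 on the disomic arrays and 11.19, 11.09 and 10.94 on the Ts1Cje arrays (M 0.24, standard error 0.08, t 2.97), opposite in sign to the M of Keap1. Ccs, the chaperone that loads copper into SOD1, had an M of 0.05 (standard error 0.16) with overlapping groups, unlike Sod1 itself.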

How the data were processed

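Total RNA of 6 neurosphere cultures was labelled with biotin after amplification and hybridised to Affymetrix mouse genome arrays. The authors deposited 1 log2 intensity for each probe set and array, computed with GCRMA, which corrects background from probe base composition, normalizes between arrays and summarises probes. No version is given in the sources used here, and these steps cannot be repeated from the deposited values. The platform annotation named 34945 of 45037 probe sets with a single symbol, and 932 had several symbols and 9160 none. Another 64 probe sets, controls, were kept apart. A linear model with genotype alone was fitted to all probe sets with limma 3.58.1 in R 4.3.3 (lmFit, eBayes, two-sided, Benjamini-Hochberg over all probe sets). The prior degrees of freedom were 0.336, so each probe set is judged almost entirely by its own 3 against 3 arrays. The labels call the arrays biological replicates, and their number limits the precision.

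Per-array values were given for members past a moderated t of 4, members whose groups did not overlap, the 8 with the largest absolute M, Sod1, Bach1, Nfe2l2 and Keap1, and members with expressed probe sets of opposite sign and an M beyond 0.3 on at least 1 of them. A few more, such as Prdx3 and Srxn1, were added after their values were seen. The members and lists were chosen with earlier results of these data known. Marker lists covered dividing cells, neural stem cells and astrocytes (15 expressed, median M 0.10), neuroblasts and neurons (6 expressed, 0.26), the oligodendrocyte lineage (8 expressed, -0.05), microglia, ependymal cells and vascular cells (1 expressed, -0.35). Alternatives were a replicate block, array weights, an intensity-dependent prior, cyclic loess, other expression levels, other choices of probe set and leaving out each array. Promoters are from RefSeq, and tables were handled with Python 3.11.15, pandas 2.3.3 and matplotlib 3.10.9.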

Additional observations from a re-analysis of the deposited data

How the results depend on the processing

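The brightest Sod1 probe set kept a moderated t above 4 under every alternative run, and its second one missed it (t 3.88) only with the fit limited to expressed probe sets. That fit called 1 member probe set instead of 2 (1.52% of the 66), while the share of all expressed probe sets past a t of 4 fell to 0.684%. With the intensity-dependent prior 2 were called (3.03%, against 0.513% of all). Array weights and cyclic loess each called 3 (4.55%, against 2.04% and 1.81% of all). Leaving out 1 array gave 2 to 10 called member probe sets, while the share of all expressed probe sets past a t of 4 also rose, from 1.78% to between 2.41% and 4.79%. The 10 (15.2% of 66, against 2.63% of all) arose without the first disomic array (9 higher, 1 lower), when Gstm1 (t 5.81), Slc7a11 (M 1.19, t 5.03), Prdx3 and a probe set of Sod2 (t 4.37) passed and the dimmer Me1 probe set reached an adjusted p of 0.0211 in limma. That Me1 probe set then read 9.23 and 9.23 on the disomic and 9.64, 9.65 and 9.65 on the Ts1Cje arrays. Its t of 68.41 thus rested on a spread close to 0. The brightest Me1 probe set overlapped with all arrays (M 0.23, t 1.15). Without the third disomic array 4 were called (6.06% against 3.98%), with Nfe2l2 (M -0.35, t -6.74) and Gsr (M -0.81, t -4.20) lower. Without the first Ts1Cje array 4 were called (6.06% against 4.79%), with Gstm5 (t 7.07), and without the second Ts1Cje array a Sod2 probe set passed (t 4.42). Probe sets past an adjusted p of 0.05 over the array were 0 to 6, against 1, with 0 without the first Ts1Cje or the second disomic array (1714 and 1063 at an unadjusted p under 0.05), 2 without the second Ts1Cje and 6 without the first disomic array.

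The number of genes without overlap, 10 of 38 with all arrays, was 7 of 38 with the mean over probe sets and 9 of 30 with A above 7. The share over all genes was not computed for either setting. With every probe set counted it was 16 of 66 (13 higher, 3 lower), against 5.53% higher and 5.21% lower of all expressed probe sets. With 1 array fewer, groups overlap less often in general: the number of genes was 11 to 17, as the share of all expressed genes went from 11.3% to between 18.1% and 26.4%. The 17 (44.7% of 38, 13 higher and 4 lower) arose without the first disomic array, where 20.9% of all expressed genes did not overlap. The median M stayed above 0, from 0.03 to 0.14. Bach1 ranged from an M of -0.26 to 0.08 on leaving out 1 array, and turned above 0 without the third Ts1Cje array (0.04) or the second disomic array (0.08). Pgd passed with cyclic loess (t -4.22) and without the first disomic array (t -4.2). Its t was only -2.08 with the intensity-dependent prior and -1.57 with the fit limited to expressed probe sets. For all the changes not due to fewer arrays or probe sets the cause was not tested.

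The study describes the cultures as littermate pairs, and both genotypes carry the same replicate numbers, but the labels do not say which cultures were littermates. Same-numbered arrays did not deviate together (correlations of -0.17, -0.03 and 0.13, while the first Ts1Cje array correlated best with the second disomic one, 0.40), so the numbers were not treated as pairs. With the replicate block limma called 0 probe sets over the array (1391 at an unadjusted p under 0.05) and 6 member probe sets past a t of 4 (5 higher, 1 lower), among them Slc7a11 (t 6.38), Gstm5 (t 4.83), a probe set of Sod2 (t 4.51) and Gsr (t -5.07). That is 9.09% of the 66, against 6.6% of all expressed probe sets past a t of 4 in the same fit. The block, like leaving out 1 array, leaves fewer residual degrees of freedom than the main fit. A t of 4 is therefore a weaker cut-off there.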
